A study of Mus musculus with 121 samples.

Results

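Day 11 after a single local dose of 30 Gy of gamma rays was compared with no irradiation in mca4, a transplantable mouse mammary carcinoma that arose spontaneously in a C3H/He mouse. The arrays were chosen by their titles alone: 3 arrays of irradiated tumours on day 11 and 2 arrays of unirradiated tumours, 5 of the 121 arrays of the series. The hosts were C3H/HeMs male mice of unstated age that carried the tumour in the hind leg, and the dose went to the tumour. The study as a whole followed 6 transplanted tumours after gamma rays or carbon ions, on 1-colour CodeLink arrays of dissected tumours. The unirradiated arrays carry a day 1 code, so their tumours were not matched in time to day 11. Further mca4 groups used here are 2 unirradiated arrays of the carbon ion experiment, 2 arrays of day 1 after 30 Gy of gamma rays, and 3 arrays of day 25 and 2 of day 41 after 50 Gy of gamma rays. Day 1 after 50 and after 70 Gy of gamma rays, with 2 arrays each, is cited in places. The 2 unirradiated pairs of mca4 are called the gamma controls and the carbon controls. Of mmca, another spontaneous mammary carcinoma of C3H/He mice, 3 arrays of day 9 after 30 Gy of gamma rays and 2 unirradiated arrays of day 9 were used. The unirradiated mmca arrays of the carbon ion experiment replaced the latter where stated. Further groups served only to judge the gamma controls. They were unirradiated mmca of day 1, and mca4 and mmca on day 1 after 30 Gy of gamma rays or carbon ions. Other mca4 arrays, with further times after 30 Gy of carbon ions, also served. So did arrays of nfsa, a spontaneous fibrosarcoma of C3H/He mice, and of a radiation-induced C3H fibrosarcoma. Nothing in the labels ties each array to an animal of its own, so p-values reflect array-to-array spread that may be technical.

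Ionizing radiation breaks DNA and activates the transcription factor p53, whose targets halt the cell cycle or start apoptosis within hours. In the following days and weeks dying tumour cells are cleared by macrophages, and T cells and natural killer cells may enter the tumour. Macrophages, dendritic cells and B cells display peptides to helper T cells on MHC class II molecules. Interferon-gamma from T cells and natural killer cells raises the expression of MHC genes and of the guanylate-binding proteins.

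Values are log2 of the deposited intensity. Changes are differences of group means ± standard error from a limma model over all 121 arrays (n = 3 on day 11 and 2 in each mca4 reference group), and a change of 1 is a 2-fold change. The model estimates the spread of a gene over all groups. Its standard errors and p-values can therefore understate or overstate the scatter of the arrays compared. A gene is said to rise or fall at an adjusted p under 0.05. Levels are not compared between genes, since each probe has its own response. Very low values lie near the floor of -2.98, where changes are understated. Epithelial markers were measured in every array: Epcam, an adhesion molecule of epithelia, read 7.20 and 6.81 in the gamma controls and 6.80, 7.20 and 7.04 on day 11, and the tight junction gene Cldn3 read 5.84 and 5.94 in the gamma controls and 5.70, 5.32 and 5.65 on day 11. Neither change passed the test (against the gamma controls 0.01 ± 0.15, adjusted p = 0.971, and -0.34 ± 0.18, adjusted p = 0.0956, and against the carbon controls -0.20 ± 0.15, adjusted p = 0.286, and 0.20 ± 0.18, adjusted p = 0.371). Krt18, Krt19 and Cldn7 were not tested.

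The gamma controls stood apart from the carbon controls and from the later gamma arrays, and less so from the gamma arrays of day 1. Their mean differed from that of the carbon controls by more than 1 log2 in 576 genes upwards and 1091 downwards of 12732, or 13.1%. The corresponding share between the gamma and carbon experiments was 3.00% for mca4 on day 1 after 30 Gy, 8.05% for mmca on day 1 after 30 Gy, and 2.51 to 5.80% for unirradiated mmca. From day 1 after 30 Gy of gamma rays the gamma controls differed by more than 1 log2 in 6.01% of genes. The correlation over genes was 0.991 between the 2 gamma controls, 0.943 to 0.948 with the carbon controls and 0.938 to 0.941 with day 11. With the day 1 gamma arrays it was 0.966 to 0.970 after 30 Gy, 0.975 to 0.978 after 50 Gy and 0.968 to 0.970 after 70 Gy. In 10 of 11271 genes both gamma controls lay over 1 log2 above all 26 other mca4 arrays, and in 7 over 1 log2 below. In other tumours these genes were counted by a looser rule, at any margin and against irradiated arrays alone. In the unirradiated day 1 gamma arrays of another tumour of the series, 9 of the 10 lay above and 5 of the 7 below every irradiated array of that tumour. In 3 unirradiated groups of mmca and nfsa the numbers were 1 to 4 and 0 to 2. Most changes on day 11 are therefore given against both pairs. The carbon controls, chosen as an alternative after the data were seen, come from the other experiment, whose control arrays lacked 1.21 to 1.27% of probe values against 13.0 to 15.2% on the 5 arrays compared.

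Against the gamma controls 7872 of 12953 genes tested, 60.8%, changed by day 11. Of all genes 3514 (27.1%) were higher and 4358 (33.6%) lower, and the median change was -0.07. Changes of at least 2-fold numbered 1128 upwards and 714 downwards. With quantile normalization 7847 genes were called, 4158 higher and 3689 lower, so the balance of directions depended on the scaling. Against the carbon controls 5199 of 12960 genes, 40.1%, were called, 2059 (15.9%) higher and 3140 (24.2%) lower. Against day 1 after the same dose 4475 of 12960 genes, 34.5%, were called, 1744 (13.5%) higher and 2731 (21.1%) lower; with quantile normalization 2347 were higher and 1478 lower, and without the first day 1 array the count was 2020. The day 11 arrays and the gamma controls did not overlap in 70.9% of genes. The 3 comparisons share the day 11 arrays. Every count over a gene list below is to be read beside these shares of all genes, and several lie near them.

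**Figure D1:**
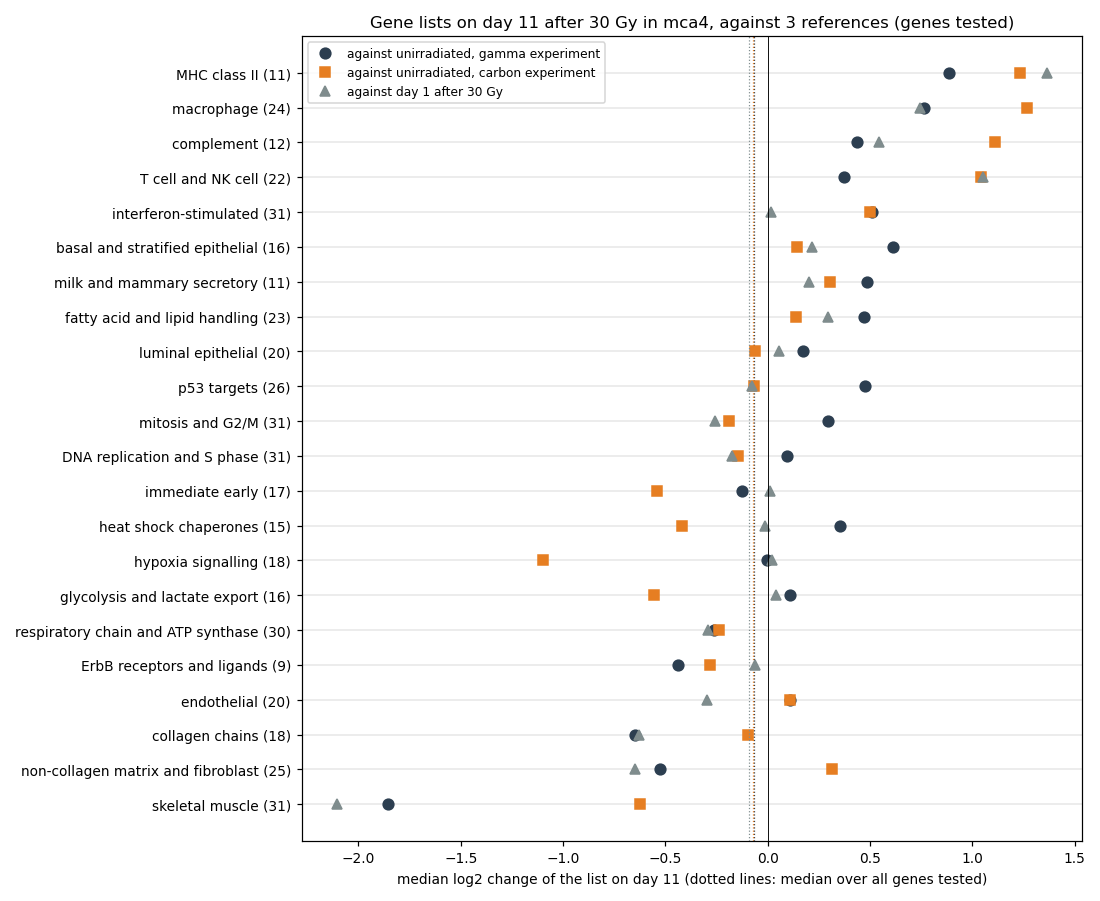
Median log2 change (x axis) of 22 gene lists (y axis, number of genes tested in brackets) on day 11 after 30 Gy in mca4, against the gamma controls (dark circles), the carbon controls (orange squares) and day 1 after 30 Gy (grey triangles); dotted lines are the medians of all genes tested. The MHC class II, macrophage, complement and T cell lists lay to the right against all 3 references, while the hypoxia list lay at -0.01 against the gamma controls and at -1.10 against the carbon controls.

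The largest rise against the gamma controls was that of Ltf, which encodes lactoferrin, an iron-binding protein of milk, of secretory epithelia and of neutrophil granules. Its log2 intensity was 2.35 and 1.74 in the gamma controls, 1.89 and 1.95 in the carbon controls, 1.85 and 1.77 on day 1, and 6.46, 5.84 and 6.23 on day 11. All 3 day 11 arrays lay more than 3 log2 above every array of the other 3 groups. The change was 4.13 ± 0.35 (adjusted p = 1.08e-16) against the gamma controls and 4.26 ± 0.35 against the carbon controls, and 4.37 ± 0.35 against day 1. In whole tumours fewer cells of a type and less RNA per cell cannot be told apart, here and in all results that follow. The neutrophil and acute inflammation list, to which Ltf belongs, was mixed: 4 of 15 genes tested rose and 1 fell against the gamma controls (median 0.10), and 3 rose and 2 fell against the carbon controls (median -0.01). Its rises against the gamma controls were 2 without the second or the third day 11 array. Il1b, an inflammatory cytokine of that list, changed by 1.57 ± 0.31 against the gamma controls and 0.85 ± 0.31 against the carbon controls. In the milk and mammary secretory list, to which Ltf also belongs, 6 of 11 genes tested rose and 2 fell against the gamma controls (median 0.49), and 4 rose and 1 fell against the carbon controls (median 0.30).

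Several of the other large rises were genes of stratified epithelium. Prss27, a serine protease of such epithelia, read -0.83 and -1.31 in the gamma controls, -1.05 and -1.27 in the carbon controls, and 2.23, 0.62 and 2.09 on day 11. Krt78, a keratin of differentiated stratified epithelium, read -0.64 and -0.92 in the gamma controls, -0.31 and -0.24 in the carbon controls, and 2.37, 1.13 and 2.24 on day 11. In both genes the second day 11 array was the lowest of the 3 and still above all 4 control arrays. The standard deviation of the 3 day 11 arrays was 0.89 for Prss27 and 0.68 for Krt78, wider than the model's standard errors reflect. Prss27 changed by 2.72 ± 0.27 (adjusted p = 1.1e-13) against the gamma controls and 2.81 ± 0.27 against the carbon controls, and Krt78 by 2.69 ± 0.24 (adjusted p = 1.31e-15) against the gamma controls and 2.19 ± 0.24 against the carbon controls. Ly6d, a surface protein of keratinocytes, read 1.05 and 0.95 in the gamma controls, 1.11 and 1.12 in the carbon controls, and 4.29, 2.87 and 3.85 on day 11, with the second day 11 array again the lowest, and changed by 2.67 ± 0.28 (adjusted p = 3.72e-13) against the gamma controls and 2.56 ± 0.28 against the carbon controls.

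Serpinb2, an inhibitor of plasminogen activators made by keratinocytes and macrophages, read -1.11 and -1.34 in the gamma controls, 0.68 and 0.76 in the carbon controls, and 2.63, 1.39 and 2.10 on day 11. Msln, which encodes the surface protein mesothelin, read -2.67 and -2.60 in the gamma controls, -0.47 and -0.62 in the carbon controls, and 0.79, -0.08 and 0.82 on day 11. For both the carbon controls lay between the gamma controls and day 11, with no overlap. Serpinb2 changed by 3.27 ± 0.40 (adjusted p = 1.37e-10) against the gamma controls and 1.32 ± 0.40 against the carbon controls, and Msln by 3.14 ± 0.35 (adjusted p = 9.86e-12) against the gamma controls and 1.06 ± 0.35 against the carbon controls.

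In the list of basal and stratified epithelial genes, 9 of 16 genes tested rose and 1 fell against the gamma controls (median 0.61), and 7 rose and 5 fell against the carbon controls (median 0.14); against day 1 7 rose and 1 fell (median 0.21). Krt5, the keratin of basal cells, read 1.61 and 1.65 in the gamma controls, 1.61 and 1.50 in the carbon controls, 1.69 and 1.56 on day 1, and 3.24, 3.09 and 2.73 on day 11. The day 11 arrays lay above every array of the 3 references, and the change was 1.39 ± 0.33 (adjusted p = 0.000254) against the gamma controls and 1.46 ± 0.33 against the carbon controls. With the mca4 gamma arrays alone in the fit the first of these had an adjusted p of 0.0811. Krt6a, a keratin of activated and wounded epithelium, changed by 1.33 ± 0.18 (adjusted p = 2.71e-09) against the gamma controls and 1.64 ± 0.18 against the carbon controls. Sprr1a, a precursor of the cornified envelope, changed by 1.17 ± 0.37 (adjusted p = 0.00524) against the gamma controls and 2.07 ± 0.37 against the carbon controls; without the second gamma control the first of these was 0.83 with an adjusted p of 0.135.

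Luminal epithelial genes were mixed: 7 of 20 genes tested rose and 4 fell against the gamma controls (median 0.17), and 2 rose and 4 fell against the carbon controls (median -0.06). Against the gamma controls, 2 fell without the first gamma control, and the median was -0.06 without the second. Cldn4, a tight junction protein, read 2.90 and 3.34 in the gamma controls, 3.35 and 3.43 in the carbon controls, and 4.83, 3.95 and 4.69 on day 11 and changed by 1.37 ± 0.24 (adjusted p = 1.63e-06) against the gamma controls and 1.10 ± 0.24 against the carbon controls. Krt8, the luminal keratin, read -0.39 and -0.42 in the gamma controls, 2.13 and 1.76 in the carbon controls, and 0.86, 0.28 and 1.32 on day 11. Day 11 arrays of Krt8 lay between the 2 control pairs, and its change was 1.23 ± 0.26 against the gamma controls and -1.12 ± 0.26 against the carbon controls. Cdh1, the epithelial cadherin, read 4.52 and 4.08 in the gamma controls, 5.18 and 5.40 in the carbon controls, and 5.69, 5.47 and 5.66 on day 11 and had a change of 1.31 ± 0.21 against the gamma controls and 0.31 ± 0.21 against the carbon controls (adjusted p = 0.242).

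**Figure D2:**
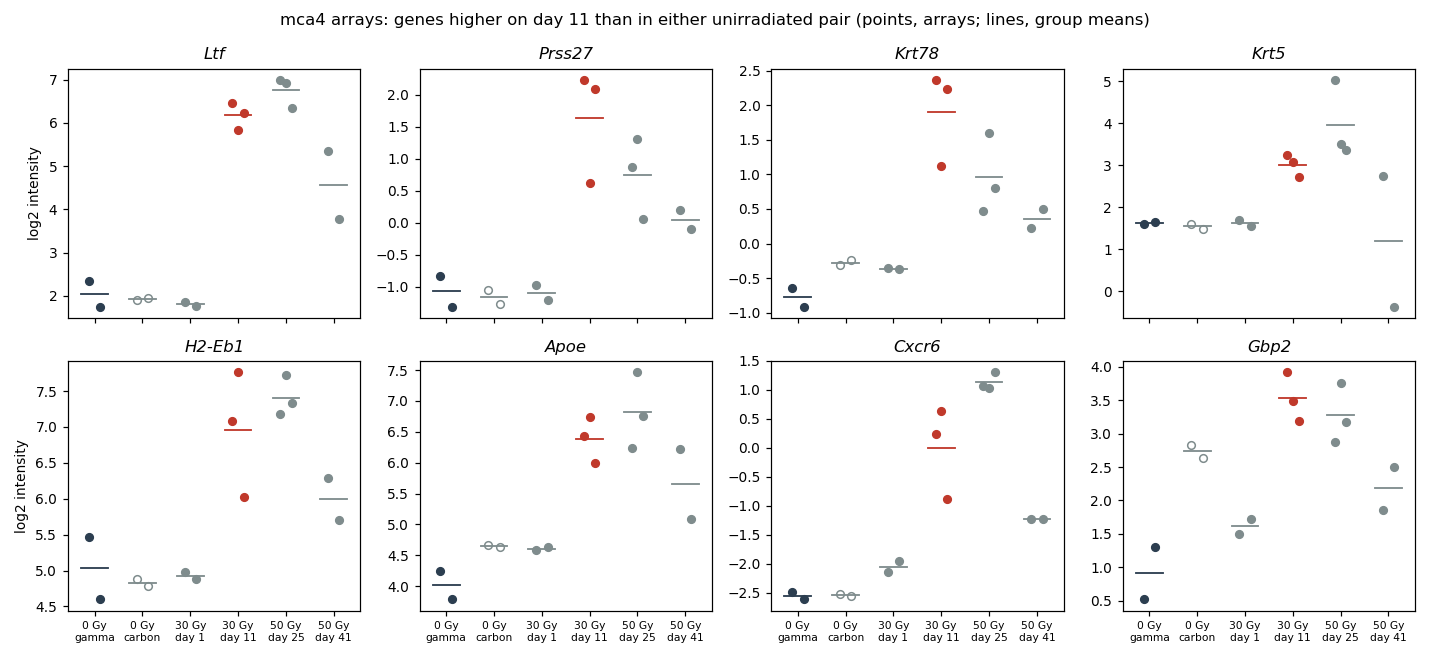
Log2 intensity (y axis) of 8 genes in each mca4 array (points) with group means (lines), by group (x axis): gamma controls (dark), carbon controls (open), day 11 after 30 Gy (red), and in grey day 1 after 30 Gy and days 25 and 41 after 50 Gy. In all 8 genes, shown for their rise, the red points lie above both control pairs, for Ltf by more than 3 log2.

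Most MHC class II genes tested were higher on day 11 than in each of the 3 references. In this list, 7 of 11 genes tested rose and 1 fell against the gamma controls (median 0.88), and 10 rose and 0 fell against the carbon controls (median 1.23); against day 1 10 rose and 0 fell (median 1.36). Beside these counts stand rises in 27.1, 15.9 and 13.5% of all genes. The first count of rises was 5 to 8 without each array in turn. The mean level of 8 of the genes was 4.30 to 4.69 in the gamma controls and 4.66 to 5.79 on day 11, which overlap. It was 3.89 to 3.90 in the carbon controls and 3.84 on day 1. H2-Aa, the alpha chain of the I-A molecule, read 5.72 and 5.02 in the gamma controls, 5.35 and 5.25 in the carbon controls, and 7.30, 7.83 and 6.10 on day 11. H2-Eb1, the beta chain of I-E, read 5.47 and 4.60 in the gamma controls, 4.88 and 4.78 in the carbon controls, and 7.08, 7.76 and 6.03 on day 11. In both genes the third day 11 array was the lowest, and none of the 3 overlapped a control array. H2-Aa changed by 1.71 ± 0.38 (adjusted p = 9.89e-05) against the gamma controls and 1.78 ± 0.38 against the carbon controls, and H2-Eb1 by 1.92 ± 0.39 (adjusted p = 1.66e-05) against the gamma controls and 2.13 ± 0.39 against the carbon controls. H2-Ea, the alpha chain of I-E, changed by 2.04 ± 0.35 (adjusted p = 6.14e-07) against the gamma controls and 1.28 ± 0.35 against the carbon controls. H2-DMb1, a chain of the peptide loader H2-DM, was the only member that fell against the gamma controls. It read 0.84 and 0.89 in the gamma controls, -0.91 and -0.79 in the carbon controls, and -0.13, -0.08 and -0.24 on day 11, so day 11 lay between the control pairs, and changed by -1.02 ± 0.17 against the gamma controls and 0.70 ± 0.17 against the carbon controls.

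The promoters of 3 of these genes are shown because MHC class II genes share a promoter module whose Y box is known to bind the factor NF-Y, and because H2-DMb1 moved apart from H2-Aa and H2-Eb1. Capitals mark the Y box letters TGATTGG, searched on both strands, in the 300 bases from 250 before to 50 after each start. The sequences are RefSeq's of GRCm38.p6. H2-Aa lies at chr17:34287774-34288073 on the minus strand, H2-Eb1 at chr17:34305617-34305916 and H2-DMb1 at chr17:34152941-34153240, both on the plus strand.
H2-Aa: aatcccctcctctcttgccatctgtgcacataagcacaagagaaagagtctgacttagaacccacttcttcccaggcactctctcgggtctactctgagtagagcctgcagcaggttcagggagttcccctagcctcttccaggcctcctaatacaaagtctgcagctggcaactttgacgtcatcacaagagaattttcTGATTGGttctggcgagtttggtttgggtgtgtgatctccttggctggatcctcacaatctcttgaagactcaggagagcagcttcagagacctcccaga
H2-Eb1: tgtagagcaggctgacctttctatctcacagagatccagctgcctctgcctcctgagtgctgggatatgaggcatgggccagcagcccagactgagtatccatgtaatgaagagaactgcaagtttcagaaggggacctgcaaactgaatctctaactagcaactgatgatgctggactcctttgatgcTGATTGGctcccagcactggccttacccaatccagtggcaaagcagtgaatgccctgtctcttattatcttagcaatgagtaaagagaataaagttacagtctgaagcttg
H2-DMb1: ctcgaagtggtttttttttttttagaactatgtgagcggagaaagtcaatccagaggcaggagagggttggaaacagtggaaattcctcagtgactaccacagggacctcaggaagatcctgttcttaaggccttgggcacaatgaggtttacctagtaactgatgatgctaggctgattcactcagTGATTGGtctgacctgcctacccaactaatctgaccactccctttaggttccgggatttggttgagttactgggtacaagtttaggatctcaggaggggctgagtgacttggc
The motif began 50, 61 and 63 bases before the start. It was found in 6 of the 8 listed MHC class II genes with a promoter in the table, in 9.00% of all 27025 genes of the table, and in 7.82% of its 32851 promoters. The reference is the strain C57BL/6J, not C3H, and a match in letters is a description, not a measured binding site.

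Macrophage genes were also higher on day 11 than in all 3 references. In this list, 15 of 24 genes tested rose and 0 fell against the gamma controls (median 0.76), and 18 rose and 0 fell against the carbon controls (median 1.27); against day 1 19 rose and 1 fell (median 0.74). The mean level of 20 of the genes was 2.30 to 2.36 in the gamma controls, 2.33 to 2.37 in the carbon controls and 3.20 to 3.67 on day 11. The part of macrophage numbers in the MHC class II result was not tested. Adgre1, the macrophage surface receptor F4/80, read -2.34 and -2.54 in the gamma controls, -1.37 and -1.78 in the carbon controls, and -0.17, 0.17 and -0.65 on day 11. No day 11 array overlapped a control array, and the change was 2.22 ± 0.26 (adjusted p = 2.14e-11) against the gamma controls and 1.36 ± 0.26 against the carbon controls.

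Ccr2, the chemokine receptor of inflammatory monocytes, read -0.02 and 0.28 in the gamma controls, 0.64 and 0.70 in the carbon controls, and 2.08, 3.10 and 1.96 on day 11. Apoe, a lipid carrier abundant in macrophages, read 4.25 and 3.79 in the gamma controls, 4.66 and 4.64 in the carbon controls, and 6.43, 6.74 and 5.99 on day 11. For both the 3 day 11 arrays lay above all control arrays, with the second the highest. Ccr2 changed by 2.25 ± 0.32 (adjusted p = 5.58e-09) against the gamma controls and 1.71 ± 0.32 against the carbon controls, and Apoe by 2.37 ± 0.40 (adjusted p = 4.31e-07) against the gamma controls and 1.74 ± 0.40 against the carbon controls. Abca1, which exports cholesterol, changed by 1.93 ± 0.22 (adjusted p = 7.61e-12) against the gamma controls and 0.80 ± 0.22 against the carbon controls. Cd83, an activation marker of dendritic cells and lymphocytes, changed by 2.67 ± 0.30 (adjusted p = 5.48e-12) against the gamma controls and 1.59 ± 0.30 against the carbon controls. In the list of fatty acid and lipid handling, 11 of 23 genes tested rose and 2 fell against the gamma controls (median 0.47), and 7 rose and 2 fell against the carbon controls (median 0.14).

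Mmp12, the macrophage elastase, depended on the control pair. It read -1.26 and -0.67 in the gamma controls, 1.71 and 1.61 in the carbon controls, and 2.83, 1.13 and 2.39 on day 11. The second day 11 array lay below both carbon controls and the other day 11 arrays above them. The change was 3.08 ± 0.40 against the gamma controls and 0.46 ± 0.40 against the carbon controls (adjusted p = 0.369). Gatm, an enzyme of creatine synthesis, read 0.16 and 0.46 in the gamma controls, 2.04 and 1.71 in the carbon controls, and 3.12, 3.21 and 2.66 on day 11, without overlap, and changed by 2.69 ± 0.29 against the gamma controls and 1.12 ± 0.29 against the carbon controls. Chil1, a chitinase-like protein of macrophages and epithelia, changed by 2.61 ± 0.23 against the gamma controls and 1.11 ± 0.23 against the carbon controls.

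Among complement genes, 5 of 12 genes tested rose and 0 fell against the gamma controls (median 0.44), and 10 rose and 0 fell against the carbon controls (median 1.11). C2, a protease of the classical pathway convertase, read -2.73 and -2.32 in the gamma controls, -1.66 and -1.80 in the carbon controls, and -0.53, -0.25 and -1.44 on day 11. All day 11 arrays were above the controls, the third by the least, and the change was 1.78 ± 0.36 (adjusted p = 1.86e-05) against the gamma controls and 0.99 ± 0.36 against the carbon controls. Cfb, its counterpart in the alternative pathway, changed by 1.54 ± 0.35 against the gamma controls and 1.13 ± 0.35 against the carbon controls. C3ar1, the receptor of the C3a fragment, changed by 1.25 ± 0.21 against the gamma controls and 1.09 ± 0.21 against the carbon controls. Cd55, which dissociates the convertases on host cells, changed by 1.50 ± 0.36 against the gamma controls and 2.08 ± 0.36 against the carbon controls.

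T cell and natural killer cell genes were higher on day 11, more of them against the carbon controls and day 1 than against the gamma controls, with a wide spread among the 3 arrays. In this list, 8 of 22 genes tested rose and 3 fell against the gamma controls (median 0.37), and 14 rose and 1 fell against the carbon controls (median 1.04); against day 1 13 rose and 1 fell (median 1.05). The first count of rises, 8, is near the 27.1% of all genes that rose against the gamma controls, and was 5 without the second gamma control. Cxcr6, a chemokine receptor of resident and effector T cells, read -2.49 and -2.61 in the gamma controls, -2.52 and -2.55 in the carbon controls, -2.15 and -1.96 on day 1, and 0.23, 0.63 and -0.88 on day 11. The third day 11 array was the lowest, and all 3 lay above the other 6 arrays. The change was 2.55 ± 0.48 (adjusted p = 5.15e-06) against the gamma controls and 2.53 ± 0.48 against the carbon controls. Cxcl16, its ligand, made by macrophages and epithelia, read 3.84 and 3.36 in the gamma controls, 3.60 and 3.36 in the carbon controls, and 4.98, 4.97 and 4.63 on day 11, without overlap, and changed by 1.26 ± 0.20 (adjusted p = 1.97e-07) against the gamma controls and 1.38 ± 0.20 against the carbon controls.

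Klrc1, the inhibitory receptor NKG2A of natural killer and CD8 T cells, read -2.15 and -2.30 in the gamma controls, -1.43 and -1.46 in the carbon controls, and 0.43, 0.79 and -0.62 on day 11 and changed by 2.43 ± 0.40 (adjusted p = 3.05e-07) against the gamma controls and 1.65 ± 0.40 against the carbon controls. Prf1, the pore-forming protein perforin, changed by 1.51 ± 0.41 (adjusted p = 0.00119) against the gamma controls and 1.24 ± 0.41 against the carbon controls. As in Cxcr6, the third day 11 array was the lowest of the 3 in both genes. Cd8b1, a chain of the CD8 co-receptor, read -1.45 and -1.81 in the gamma controls, -1.25 and -1.49 in the carbon controls, and 0.21, 0.83 and -0.55 on day 11 and changed by 1.79 ± 0.56 (adjusted p = 0.00447) against the gamma controls and 1.54 ± 0.56 against the carbon controls; without the second gamma control the first of these was 1.61 with an adjusted p of 0.0508.

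Chemokine genes were mixed: 4 of 20 genes tested rose and 4 fell against the gamma controls (median -0.13), and 7 rose and 1 fell against the carbon controls (median 0.29). The first count of rises was 2 without the second gamma control and without the first or the second day 11 array, and the first median was 0.07 without the third. Ccl8, a monocyte attractant, read 5.18 and 5.44 in the gamma controls, 5.08 and 5.01 on day 1 and 6.42, 7.34 and 5.31 on day 11. The third day 11 array lay between the gamma controls and above day 1 and the carbon controls. The change was 1.05 ± 0.43 (adjusted p = 0.0318) against the gamma controls and 2.21 ± 0.43 against the carbon controls (adjusted p = 3.6e-05), and 1.31 ± 0.43 (adjusted p = 0.0147) against day 1. Against the gamma controls the call was lost without either gamma control and without the first or the second day 11 array, with changes of 0.56 to 1.18. Ccl5, an attractant of T cells and monocytes, was lower than in the gamma controls (-1.14 ± 0.38) and did not pass the test against the carbon controls (-0.26 ± 0.38, adjusted p = 0.608). In the B cell and plasma cell list, 2 of 10 genes tested rose and 2 fell against the gamma controls (median 0.14), and 5 rose and 0 fell against the carbon controls (median 0.40). Igkv9-120, an immunoglobulin light chain segment with close relatives, read -0.05 and -0.86 in the gamma controls, -2.98 and -2.79 in the carbon controls, and 1.16 and 3.42 on 2 day 11 arrays, and was missing on the third. Its change was 2.74 ± 0.95 (adjusted p = 0.0106) against the gamma controls and 5.17 ± 0.95 against the carbon controls (adjusted p = 1.55e-05), where 1 array was at the floor. The first of these was not called without the second gamma control (2.33) or without the second day 11 array (1.61).

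Of the 31 interferon-stimulated genes tested, 19 rose and 2 fell against the gamma controls (median 0.51), and 10 rose and 0 fell against the carbon controls (median 0.50); against day 1 8 rose and 2 fell (median 0.02). Gbp2, a guanylate-binding protein induced by interferon-gamma, read 0.52 and 1.31 in the gamma controls, 2.83 and 2.64 in the carbon controls, 1.50 and 1.72 on day 1, and 3.92, 3.49 and 3.18 on day 11. All day 11 arrays were above the other 3 groups, and the change was 2.62 ± 0.32 (adjusted p = 6.61e-11) against the gamma controls and 0.79 ± 0.32 against the carbon controls. Rsad2, the antiviral protein viperin, induced chiefly by type I interferon, read -1.26 and -0.58 in the gamma controls, 2.14 and 2.03 in the carbon controls, 2.35 and 2.68 on day 1, and 1.90, 1.59 and 1.83 on day 11. Here the gamma controls alone were low. The change was 2.69 ± 0.37 against the gamma controls and -0.32 ± 0.37 against the carbon controls (adjusted p = 0.524), and -0.74 ± 0.37 against day 1 (adjusted p = 0.117).

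The promoters of Gbp2 and Rsad2 are shown because Gbp2 rose against all 3 references and Rsad2 against the gamma controls alone. Capitals mark the core of the interferon-stimulated response element, GAAA followed by any 2 bases and GAAA, searched on both strands. In both windows it lies on the opposite strand and so reads as its reverse complement. Gbp2 is at chr3:142620413-142620712 on the plus strand and Rsad2 at chr12:26456403-26456702 on the minus strand of GRCm38.p6, again from RefSeq.
Gbp2: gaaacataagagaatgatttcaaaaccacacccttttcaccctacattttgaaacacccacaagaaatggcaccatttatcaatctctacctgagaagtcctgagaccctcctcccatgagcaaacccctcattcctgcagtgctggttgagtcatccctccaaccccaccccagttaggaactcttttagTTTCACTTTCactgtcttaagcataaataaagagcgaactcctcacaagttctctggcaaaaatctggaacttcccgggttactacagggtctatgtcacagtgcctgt
Rsad2: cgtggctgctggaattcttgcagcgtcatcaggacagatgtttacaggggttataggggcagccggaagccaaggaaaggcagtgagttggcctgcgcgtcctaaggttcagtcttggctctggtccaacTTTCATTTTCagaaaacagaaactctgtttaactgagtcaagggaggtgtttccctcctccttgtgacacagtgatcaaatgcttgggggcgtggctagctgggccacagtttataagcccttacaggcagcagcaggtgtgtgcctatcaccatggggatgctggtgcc
The motif began 59 bases before the start in Gbp2 and 120 in Rsad2. It was present in 17 of 26 listed genes with a promoter in the table, in 3.99% of all genes of the table and in 3.44% of its promoters.

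Gbp3 and Igtp, further interferon-induced GTPases, rose against the gamma controls and not the carbon controls. Gbp3 had a change of 2.23 ± 0.28 against the gamma controls and 0.35 ± 0.28 against the carbon controls (adjusted p = 0.34), and of 0.83 ± 0.28 (adjusted p = 0.0182) against day 1. Igtp had a change of 1.85 ± 0.30 against the gamma controls and 0.69 ± 0.30 against the carbon controls (adjusted p = 0.0564), and of 0.66 ± 0.30 (adjusted p = 0.0786) against day 1. In the list of MHC class I and peptide loading, 2 of 9 genes tested rose and 2 fell against the gamma controls (median 0.10), and 2 rose and 0 fell against the carbon controls (median 0.28). Tap1, the peptide transporter, read 1.41 and 1.78 in the gamma controls, 3.04 and 3.13 in the carbon controls, and 3.75, 3.65 and 3.52 on day 11. Both pairs lay below day 11, and the change was 2.05 ± 0.23 (adjusted p = 5.26e-12) against the gamma controls and 0.55 ± 0.23 against the carbon controls. H2-Q1, a non-classical class I gene whose probe may detect its relatives too, had a change of 2.26 ± 0.24 against the gamma controls and -0.05 ± 0.24 against the carbon controls (adjusted p = 0.897).

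The p53 response read differently against each reference. Cdkn1a, the cell cycle inhibitor p21, read 3.56 and 3.77 in the gamma controls, 4.97 and 5.08 in the carbon controls, 5.58 and 6.13 on day 1, and 4.57, 4.40 and 4.40 on day 11. The day 11 arrays lay between the 2 control pairs and below day 1, with changes of 0.79 ± 0.18 against the gamma controls and -0.57 ± 0.18 against the carbon controls, and of -1.40 ± 0.18 (adjusted p = 5.43e-09) against day 1. Mdm2, which marks p53 for degradation, read 3.85 and 4.36 in the gamma controls, 6.24 and 6.04 in the carbon controls, 5.09 and 5.17 on day 1, and 6.12, 6.06 and 6.23 on day 11. It was above the gamma controls and day 1 and overlapped the carbon controls: 2.03 ± 0.16 against the gamma controls and -0.0033 ± 0.16 against the carbon controls (adjusted p = 0.99).

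Ccng1, the p53 target cyclin G1, had a change of 0.80 ± 0.16 against the gamma controls and -0.03 ± 0.16 against the carbon controls (adjusted p = 0.911). Ei24, a p53-induced gene, had a change of 1.89 ± 0.17 against the gamma controls and 0.12 ± 0.17 against the carbon controls (adjusted p = 0.619). Btg2, an antiproliferative p53 target, had a change of 1.79 ± 0.24 against the gamma controls and -0.03 ± 0.24 against the carbon controls (adjusted p = 0.928). All 3 rose against the gamma controls and did not pass the test against the carbon controls. Fas, the death receptor, read -0.16 and -0.45 in the gamma controls, 0.27 and 0.41 in the carbon controls, and 1.42, 1.52 and 1.33 on day 11 and rose against both pairs (1.73 ± 0.17 against the gamma controls and 1.08 ± 0.17 against the carbon controls); its change against day 1 was 0.11 ± 0.17 (adjusted p = 0.624). Trp53inp1, a p53-induced nuclear protein, had a change of -0.12 ± 0.11 (adjusted p = 0.35) against the gamma controls and -0.14 ± 0.11 against the carbon controls (adjusted p = 0.332). Of the 26 p53 targets tested, 14 rose and 6 fell against the gamma controls (median 0.47), and 4 rose and 3 fell against the carbon controls (median -0.07). Against day 1 5 rose and 8 fell (median -0.08). Of all genes 27.1, 15.9 and 13.5% rose and 33.6, 24.2 and 21.1% fell, in the same order, so the 4 rises are near the share of all genes.

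**Figure D3:**
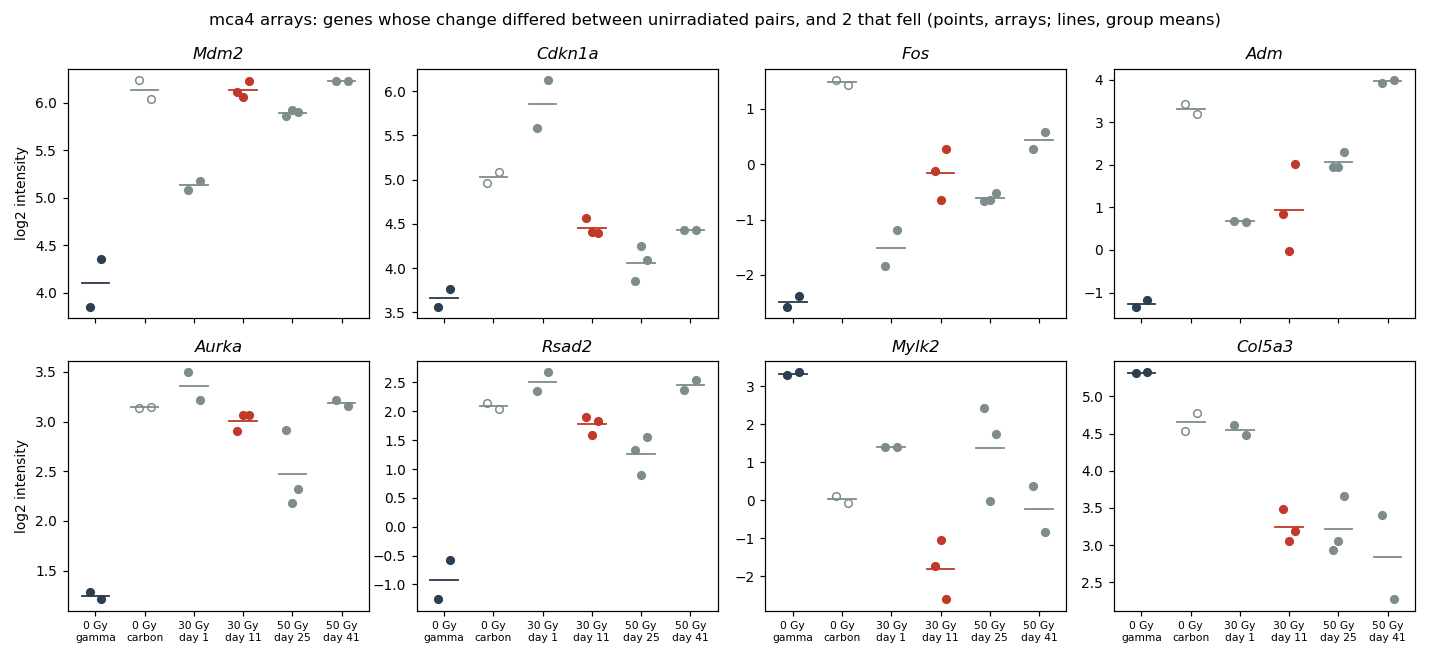
Log2 intensity (y axis) of 8 genes in each mca4 array (points) with group means (lines), by group (x axis): gamma controls (dark), carbon controls (open), day 11 after 30 Gy (red), and in grey day 1 after 30 Gy and days 25 and 41 after 50 Gy. For Mdm2, Cdkn1a, Fos, Adm, Aurka and Rsad2 the gamma controls lie below all other arrays shown, and Mylk2 and Col5a3 were lower on day 11 than in both control pairs.

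Cell cycle genes showed the same dependence on the control pair. Aurka, the mitotic kinase Aurora A, read 1.29 and 1.21 in the gamma controls, 3.13 and 3.15 in the carbon controls, 3.50 and 3.22 on day 1, and 2.90, 3.07 and 3.06 on day 11. The gamma controls were the lowest group, and the change was 1.76 ± 0.18 against the gamma controls and -0.13 ± 0.18 against the carbon controls (adjusted p = 0.585); a dimmer probe of the gene gave -0.91 against the gamma controls. Cdc25c, a phosphatase of mitotic entry, had a change of 1.92 ± 0.18 against the gamma controls and -0.17 ± 0.18 against the carbon controls (adjusted p = 0.481). Bub1b, a spindle checkpoint kinase, had a change of 1.60 ± 0.21 against the gamma controls and -0.23 ± 0.21 against the carbon controls (adjusted p = 0.388). Of the 31 mitosis genes tested, 15 rose and 2 fell against the gamma controls (median 0.30), and 0 rose and 3 fell against the carbon controls (median -0.19); against day 1 4 rose and 11 fell (median -0.26). Among all genes 27.1, 15.9 and 13.5% rose and 33.6, 24.2 and 21.1% fell in these comparisons. The proliferation marker Mki67 was not tested.

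Of the 31 DNA replication genes tested, 11 rose and 5 fell against the gamma controls (median 0.09), and 0 rose and 10 fell against the carbon controls (median -0.15). The first count of falls was 8 and the median -0.16 without the second gamma control, and the falls were 3 without the first gamma control or the first day 11 array. Mcm7, part of the replicative helicase, read -0.16 and 0.44 in the gamma controls, 3.06 and 2.93 in the carbon controls, and 2.18, 2.27 and 2.46 on day 11, so that day 11 lay between the control pairs, and changed by 2.16 ± 0.23 against the gamma controls and -0.70 ± 0.23 against the carbon controls. Rrm1, of ribonucleotide reductase, had a change of 2.06 ± 0.21 against the gamma controls and 0.23 ± 0.21 against the carbon controls (adjusted p = 0.417). In the list of DNA repair and checkpoint genes, 12 of 28 genes tested rose and 4 fell against the gamma controls (median 0.23), and 2 rose and 9 fell against the carbon controls (median -0.17). Beside both lists stand rises in 27.1 and 15.9% and falls in 33.6 and 24.2% of all genes. Ogg1, the glycosylase that removes oxidised guanine, read 2.87 and 2.74 in the gamma controls, 1.45 and 1.35 in the carbon controls, 1.20 and 1.02 on day 1, and -0.10, 0.65 and 0.72 on day 11. It was lower on day 11 than in all 3 references, with changes of -2.38 ± 0.15 (adjusted p = 2.39e-22) against the gamma controls and -0.98 ± 0.15 against the carbon controls, and of -0.68 ± 0.15 against day 1. Xrcc5, the Ku80 subunit of end joining, changed by 2.35 ± 0.20 against the gamma controls and -0.82 ± 0.20 against the carbon controls, in opposite directions.

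Several genes of hypoxia and stress changed direction with the control pair. The medians of the hypoxia and immediate early lists did not, and were below 0 against both pairs. Adm, the hypoxia-induced vasodilator adrenomedullin, read -1.34 and -1.19 in the gamma controls, 3.42 and 3.20 in the carbon controls, 0.67 and 0.67 on day 1, and 0.85, -0.03 and 2.02 on day 11. The day 11 arrays lay between the 2 control pairs, spread over 2 log2, and changed by 2.21 ± 0.37 against the gamma controls and -2.36 ± 0.37 against the carbon controls. Of the 18 hypoxia genes tested, 6 rose and 3 fell against the gamma controls (median -0.01), and 0 rose and 15 fell against the carbon controls (median -1.10). The first median ranged from -0.06 to 0.13 with each array left out in turn, and was highest without the second day 11 array. Egln1, a prolyl hydroxylase that marks hypoxia-inducible factors for decay, changed by 1.66 ± 0.22 against the gamma controls and -0.71 ± 0.22 against the carbon controls.

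Of the 16 genes of glycolysis and lactate export tested, 6 rose and 3 fell against the gamma controls (median 0.11), and 2 rose and 12 fell against the carbon controls (median -0.56). Without the second gamma control the first count of falls was 5 and the median -0.04. Shares of all genes were 27.1 and 15.9% for rises and 33.6 and 24.2% for falls. Pkm, pyruvate kinase, changed by 1.80 ± 0.29 against the gamma controls and -1.03 ± 0.29 against the carbon controls. Slc16a3, the lactate exporter MCT4, read 3.44 and 3.84 in the gamma controls, 3.19 and 3.01 in the carbon controls, 1.87 and 1.74 on day 1, and 1.75, 1.55 and 2.19 on day 11. It was lower than in both control pairs (-1.81 ± 0.17 against the gamma controls and -1.27 ± 0.17 against the carbon controls), and the day 1 arrays lay within the range of day 11; a dimmer probe gave -0.42 against the gamma controls.

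Of the 17 immediate early genes tested, 5 rose and 4 fell against the gamma controls (median -0.13), and 1 rose and 11 fell against the carbon controls (median -0.54). Against the gamma controls, 2 fell without the first gamma control. Fos, a subunit of the transcription factor AP-1, changed by 2.32 ± 0.27 against the gamma controls and -1.64 ± 0.27 against the carbon controls. Klf6, a zinc finger transcription factor, changed by 2.03 ± 0.22 against the gamma controls and -0.85 ± 0.22 against the carbon controls. Atf3, a stress-induced transcription factor, had a change of 1.97 ± 0.21 against the gamma controls and -0.17 ± 0.21 against the carbon controls (adjusted p = 0.544). Nr4a1, the nuclear receptor Nur77, was an exception among these: it read 4.30 and 4.32 in the gamma controls, 4.11 and 3.96 in the carbon controls, 4.08 and 3.96 on day 1, and 2.85, 2.75 and 3.08 on day 11. It was lower on day 11 than in all 3 references, with changes of -1.41 ± 0.22 (adjusted p = 5.67e-08) against the gamma controls and -1.14 ± 0.22 against the carbon controls, and of -1.12 ± 0.22 against day 1.

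Of the 15 heat shock chaperones tested, 7 rose and 2 fell against the gamma controls (median 0.35), and 0 rose and 8 fell against the carbon controls (median -0.42). In the unfolded protein response, 10 of 19 genes tested rose and 2 fell against the gamma controls (median 0.45), and 2 rose and 5 fell against the carbon controls (median -0.25); the first count of rises was 6 without the second gamma control. Herpud1, of endoplasmic reticulum protein quality control, changed by 2.09 ± 0.22 against the gamma controls and -0.79 ± 0.22 against the carbon controls.

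The largest falls included genes of skeletal muscle, the tissue that surrounds a tumour in the leg. Mylk2, the myosin light chain kinase of skeletal muscle, read 3.30 and 3.37 in the gamma controls, 0.12 and -0.06 in the carbon controls, 1.41 and 1.40 on day 1, and -1.74, -1.05 and -2.60 on day 11. Atp2a1, the calcium pump of fast muscle, read 5.72 and 5.74 in the gamma controls, 3.33 and 3.39 in the carbon controls, 4.72 and 4.57 on day 1, and 1.60, 2.87 and 1.68 on day 11. In both genes the gamma controls were the highest, followed by day 1, the carbon controls and day 11. Mylk2 changed by -5.13 ± 0.74 (adjusted p = 1.01e-08) against the gamma controls and -1.83 ± 0.74 against the carbon controls, and Atp2a1 by -3.68 ± 0.93 against the gamma controls and -1.31 ± 0.93 against the carbon controls (adjusted p = 0.263). Xirp2, a Xin repeat protein of muscle, had a change of -4.44 ± 0.94 against the gamma controls and -1.74 ± 0.94 against the carbon controls (adjusted p = 0.132). Tnnc2, troponin C of fast muscle, had a change of -3.38 ± 1.07 against the gamma controls and -1.29 ± 1.07 against the carbon controls (adjusted p = 0.347). Actn3, an actinin of fast muscle that was missing on the first day 11 array, had a change of -3.56 ± 0.94 against the gamma controls and -0.62 ± 0.94 against the carbon controls (adjusted p = 0.627). Pvalb, the calcium buffer parvalbumin, read 5.14 and 5.21 in the gamma controls, 2.57 and 2.74 in the carbon controls, and -1.38, 2.51 and -0.04 on day 11, and had a change of -4.81 ± 1.63 against the gamma controls and -2.29 ± 1.63 against the carbon controls (adjusted p = 0.265). The first of these was not called without the first day 11 array (-3.94, adjusted p = 0.0531).

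Of the 31 muscle genes tested, 0 rose and 18 fell against the gamma controls (median -1.85), and 1 rose and 1 fell against the carbon controls (median -0.63); against day 1 0 rose and 21 fell (median -2.10). The mean level of 23 of them was 2.95 to 3.17 in the gamma controls, 1.61 to 1.65 in the carbon controls, 2.96 to 3.02 on day 1 and 0.68 to 1.31 on day 11. These markers of another tissue moved with the groups, and their part in the results on matrix, endothelium and respiration was not tested.

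Against the gamma controls 10 of 18 collagen genes fell, beside 33.6% of all genes, and the count depended on 1 array. Of the 18 collagen chains tested, 1 rose and 10 fell against the gamma controls (median -0.65), and 1 rose and 3 fell against the carbon controls (median -0.09); against day 1 0 rose and 8 fell (median -0.63). The first count of falls, 10, was 5 without the first gamma control, which is below that share. Col5a3, a chain of fibrillar collagen V, read 5.31 and 5.32 in the gamma controls, 4.53 and 4.77 in the carbon controls, and 3.48, 3.06 and 3.18 on day 11. All 3 day 11 arrays were below both pairs, and the change was -2.08 ± 0.24 (adjusted p = 1.58e-11) against the gamma controls and -1.41 ± 0.24 against the carbon controls. Col6a2, of collagen VI, had a change of -1.96 ± 0.37 against the gamma controls and -0.52 ± 0.37 against the carbon controls (adjusted p = 0.269).

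Of the 25 other matrix and fibroblast genes tested, 0 rose and 11 fell against the gamma controls (median -0.53), and 4 rose and 0 fell against the carbon controls (median 0.31). The falls of 11 of 25 stand beside 33.6% of all genes, and were 8 to 13 without each array in turn. Thbs4, a thrombospondin of muscle and tendon, had a change of -2.83 ± 0.79 against the gamma controls and -0.43 ± 0.79 against the carbon controls (adjusted p = 0.694). Tagln, a smooth muscle actin-binding protein, had a change of -1.49 ± 0.25 against the gamma controls and -0.37 ± 0.25 against the carbon controls (adjusted p = 0.245). Pdgfrb, the receptor of pericytes and fibroblasts, had a change of -1.20 ± 0.26 against the gamma controls and 0.08 ± 0.26 against the carbon controls (adjusted p = 0.838). All 3 fell against the gamma controls and did not pass the test against the carbon controls.

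Of the 19 matrix proteases and inhibitors tested, 6 rose and 2 fell against the gamma controls (median 0.33), and 7 rose and 0 fell against the carbon controls (median 0.54). Timp3, an inhibitor of metalloproteinases, read 3.42 and 3.23 in the gamma controls, 4.09 and 3.99 in the carbon controls, and 5.43, 5.18 and 5.23 on day 11, without overlap, and changed by 1.95 ± 0.23 (adjusted p = 2.05e-11) against the gamma controls and 1.24 ± 0.23 against the carbon controls. Plat, tissue plasminogen activator, had a change of 2.37 ± 0.26 against the gamma controls and 0.46 ± 0.26 against the carbon controls (adjusted p = 0.153). Tgfbi, a matrix protein induced by TGF-beta, read 0.50 and 1.20 in the gamma controls, 2.80 and 2.70 in the carbon controls, and 3.81, 3.92 and 3.47 on day 11. It was highest on day 11 and changed by 2.88 ± 0.30 (adjusted p = 4.1e-13) against the gamma controls and 0.98 ± 0.30 against the carbon controls, while Tgfb1, the gene of the ligand, had a change of -1.33 ± 0.17 against the gamma controls and -0.34 ± 0.17 against the carbon controls (adjusted p = 0.108). Igf2, a growth factor, had a change of -1.88 ± 0.24 against the gamma controls and 0.57 ± 0.24 against the carbon controls (adjusted p = 0.0541).

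Of the 20 endothelial genes tested, 3 rose and 9 fell against the gamma controls (median 0.11), and 6 rose and 2 fell against the carbon controls (median 0.11). More of them fell than rose against the gamma controls although the median was above 0, and it was -0.11 without the second gamma control. Rises made up 27.1 and 15.9% and falls 33.6 and 24.2% of all genes against the gamma and the carbon controls. Plvap, of fenestrated endothelium, read 3.30 and 3.27 in the gamma controls, 2.32 and 2.22 in the carbon controls, and 1.75, 1.58 and 1.51 on day 11 and was lower on day 11 than in both pairs (-1.67 ± 0.25 against the gamma controls and -0.66 ± 0.25 against the carbon controls). Other probes of Plvap, which did not pass the filters, gave 0.0047 and 0.21 against the gamma controls. Sox17, an endothelial transcription factor, changed by -1.43 ± 0.21 against the gamma controls and -0.67 ± 0.21 against the carbon controls. Pecam1, the adhesion molecule CD31, changed in the other direction, by 1.46 ± 0.29 against the gamma controls and 0.52 ± 0.29 against the carbon controls (adjusted p = 0.142).

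Of the 21 Wnt ligands, receptors and antagonists tested, 5 rose and 5 fell against the gamma controls (median -0.05), and 7 rose and 6 fell against the carbon controls (median 0.13). Falls against the gamma controls were 3 without the second gamma control and without the first or the second day 11 array. Wnt4, a ligand active in mammary branching, read -1.63 and -2.04 in the gamma controls, -1.59 and -1.80 in the carbon controls, and 0.09, -0.58 and 0.21 on day 11. All day 11 arrays were above the controls, and the change was 1.75 ± 0.42 (adjusted p = 0.000263) against the gamma controls and 1.60 ± 0.42 against the carbon controls. Wnt7a, another ligand, read 2.97 and 3.03 in the gamma controls, 2.02 and 1.94 in the carbon controls, and 1.52, 1.52 and 1.55 on day 11, below both pairs, and changed by -1.47 ± 0.10 (adjusted p = 1.74e-20) against the gamma controls and -0.45 ± 0.10 against the carbon controls. In the ErbB family, 0 of 9 genes tested rose and 6 fell against the gamma controls (median -0.44), and 0 rose and 4 fell against the carbon controls (median -0.28). For the Wnt and ErbB counts the shares of all genes were 27.1 and 15.9% for rises and 33.6 and 24.2% for falls. Egfr, the epidermal growth factor receptor, read 3.23 and 3.43 in the gamma controls, 2.67 and 2.71 in the carbon controls, and 2.32, 2.39 and 2.14 on day 11 and changed by -1.05 ± 0.11 (adjusted p = 3.67e-13) against the gamma controls and -0.41 ± 0.11 against the carbon controls; a dimmer probe gave -0.13 against the gamma controls.

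Other large falls concerned genes that were high in the gamma controls and at least 1 log2 lower in all other mca4 arrays. Tbr1, a transcription factor of the brain, read 4.48 and 4.87 in the gamma controls, 0.44 and 0.37 in the carbon controls, 0.46 and 0.47 on day 1, and 0.39, 0.40 and 0.77 on day 11. Gata5, a transcription factor of heart and gut, read 6.24 and 4.08 in the gamma controls, 0.86 and 1.09 in the carbon controls, 0.93 and 0.78 on day 1, and 1.09, 0.95 and 1.60 on day 11. Both gamma controls were thus far above the other arrays listed, which lay close together. The same held for the odorant receptor gene Olfr143 and the ceramidase gene Acer2. On day 1 after 50 Gy the means of Tbr1, Gata5, Olfr143 and Acer2 were 3.00, 2.24, 2.18 and 2.21. After 70 Gy they were 1.36, 1.86, 2.10 and 1.28. These means lay between the gamma controls and the arrays listed. The changes against the gamma controls were -4.16 for Tbr1, -3.95 for Gata5, -4.23 for Olfr143 and -3.42 for Acer2. Against the carbon controls they were 0.11, 0.24, -0.14 and -0.24 in the same order, none of them called. In unirradiated mmca of day 9 Tbr1 read 2.88 and 2.90 and Olfr143 3.69 and 5.40, against 1.33, 0.79 and 0.91 and 1.44, 1.07 and 1.36 on day 9 after 30 Gy. Mt2, a metallothionein that binds zinc, read 4.96 and 5.94 in the gamma controls, 2.91 and 3.02 in the carbon controls, and 1.98, 1.79 and 2.37 on day 11 and changed by -3.40 ± 0.24 against the gamma controls and -0.92 ± 0.24 against the carbon controls.

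Lists of basic cell functions depended on the scaling. Of 25 cytosolic ribosomal protein genes 17 rose and 1 fell against the gamma controls, but with quantile normalization 4 rose and 1 fell. Of 30 genes of the respiratory chain and ATP synthase 4 rose and 14 fell, against 7 and 10 with quantile normalization. Of 25 proteasome genes 8 rose and 4 fell, against 14 and 2 with quantile normalization. As first normalized, 4 proteasome genes rose without the second gamma control, and 2 fell without the first. Against the carbon controls 13 ribosomal genes rose and 4 fell, 1 and 11 respiratory genes, and 1 and 2 proteasome genes. Respiratory rises against the gamma controls were 2 without the second gamma control. The macrophage list had 18 rises and 0 falls with quantile normalization, and the interferon-stimulated list 21 rises and 1 fall. Apart from intensity, 309 probes had a value on all 3 day 11 arrays and on neither gamma control, and 195 the opposite; these were not tested.

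Against day 1 after the same dose Ltf, Igkv9-120, Gatm, Msln, Serpinb2 and Mmp12 rose most, by 4.37, 3.43, 2.87, 2.86, 2.81 and 2.79. Among the largest falls were the muscle genes Pvalb (-4.17), Xirp2 (-4.11), Tnnc2 (-3.55) and Mylk2 (-3.20). As first normalized, 1 of 25 proteasome genes rose and 11 fell, beside 13.5 and 21.1% of all genes. Quantile normalization turned the balance of all genes in this comparison, so this count may depend on the scaling too. Ccng1 was lower than on day 1 (-0.62, adjusted p = 0.00134) and Mdm2 higher (1.01, adjusted p = 1.9e-06).

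The same dose in mmca, on day 9 against unirradiated tumours of day 9, served as a second mammary carcinoma. The change in mca4 minus the change in mmca was called in 5510 of 12949 genes (42.6%), 1962 (15.2%) higher and 3548 (27.4%) lower. The median difference of all genes was -0.14, and 0.12 with quantile normalization, which gave 3438 higher and 1820 lower. With the carbon experiment's unirradiated arrays for both tumours 644 of 12957 genes (4.97%) were called, 289 higher and 355 lower. The differences rest on the choice of controls to that extent.

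Ltf rose in mmca as well, from 1.46 and 2.87 to 5.21, 5.74 and 4.46, a change of 2.97. The difference from mca4, 1.16, had an adjusted p of 0.0492 and was 0.25 (adjusted p = 0.842) with the carbon experiment's controls. Krt5 rose more in mmca, from -1.64 and 0.03 to 2.55, 2.97 and 2.87, a change of 3.61. That difference, -2.22 (adjusted p = 0.000104), was not called with the carbon experiment's controls (-0.51, adjusted p = 0.609).

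H2-Eb1 had a change of 0.85 in mmca. The difference from mca4 was 1.08 (adjusted p = 0.106), and 1.95 (adjusted p = 0.0264) with the carbon experiment's controls. Cxcr6 had a change of 0.71 in mmca, and the difference was 1.84 (adjusted p = 0.0231), or 1.94 (adjusted p = 0.0799). Of 22 T cell and natural killer cell genes 2 had a higher and 4 a lower change in mca4, and 2 and 0 with the carbon experiment's controls. Of 11 MHC class II genes these counts were 1 and 0, and 3 and 0.

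Slc16a3 fell in mca4, and its change in mmca was -0.19 (adjusted p = 0.462). The difference was -1.62 (adjusted p = 1.47e-07), and -1.61 (adjusted p = 1.22e-05) with the carbon experiment's. Adm had a difference of 1.96 with the gamma experiment's controls and of -3.61 with the carbon experiment's, both called and opposite in sign. Cnot2, of the CCR4-NOT deadenylase complex, and Klf6 were among the largest differences upwards (2.44 and 2.58), and neither was called with the carbon experiment's controls (0.07 and -0.54). The largest differences downwards were in muscle genes, such as -9.87 for Pvalb and -6.44 for Tnnt3, troponin T of fast muscle. In mmca the third day 9 array was high in both, at 5.55 and 4.90. Pvalb had a value on only 1 unirradiated mmca array of day 9, -2.43, which is near the floor.

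**Figure D4:**
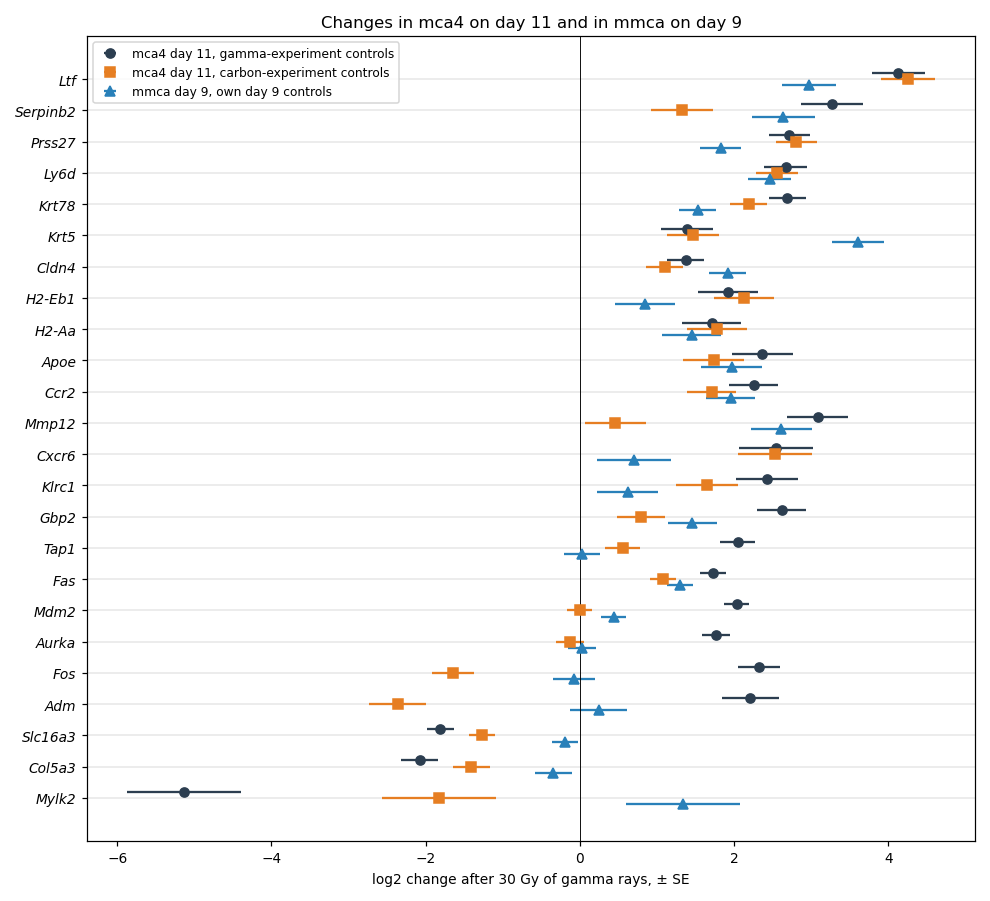
Log2 change with its standard error (x axis) of 24 genes (y axis) after 30 Gy of gamma rays: mca4 on day 11 against the gamma controls (dark circles) and the carbon controls (orange squares), and mmca on day 9 against unirradiated mmca of day 9 (blue triangles). Ltf, Prss27, Ly6d, H2-Aa, Apoe and Ccr2 lie to the right in all 3, while for Fos and Adm the dark circles lie above 2 and the orange squares below -1.

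Later mca4 tumours after 50 Gy are set beside these values without a test, since dose and day differ together. Ltf read 6.99, 6.92 and 6.34 on day 25 and 5.36 and 3.78 on day 41. Cxcr6 read 1.08, 1.04 and 1.31 on day 25 and -1.23 and -1.23 on day 41, and H2-Eb1 7.18, 7.72 and 7.33 and then 6.29 and 5.70. All 3 genes were lower on every day 41 array than on day 25. Prss27 read 0.88, 1.31 and 0.06 on day 25 and 0.20 and -0.10 on day 41. Adm read 1.94, 1.96 and 2.30 on day 25 and 3.93 and 3.99 on day 41, the latter above all 4 control arrays. Col5a3 read 2.93, 3.05 and 3.66 and then 3.40 and 2.27, all below the controls. The mean level of the muscle genes was 2.52 to 4.37 on day 25, above both day 11 and the carbon controls.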

How the data were processed

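RNA of dissected tumours was labelled with Cy5 and hybridised to 1-colour CodeLink arrays, per the labels. The authors deposited 1 table of linear intensity per probe and array; its normalization and background correction are not given in the sources used here. A floor of 0.1269 (5th percentile of the positive intensities) was applied before taking log2; missing values stayed missing. Probes with a value on 90% of arrays and a mean above the 20th percentile were kept. Of 36227 probes 21615 had 1 gene symbol, 681 several and 13931 none; the brightest probe stood for a gene, which left 12962 genes. One group-means model over 121 arrays was fitted with limma 3.58.1 in R 4.3.3 with a mean-variance trend, 67 residual degrees of freedom and Benjamini-Hochberg adjustment over all genes. The fit was tested on simulated data with known changes. The number of arrays limits the precision. No scan date or slide was used here, and no batch other than the experiment was examined. Median intensity was 1.54 to 1.60 on day 11, 1.55 to 1.66 in the gamma controls and 1.06 in the carbon controls.

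Of 38 gene lists with 898 distinct genes, 709 genes were tested. The arrays were taken by title, but the comparison itself and the lists were chosen with earlier results of these data known. Counts over lists are therefore descriptions beside those over all genes. The candidates for naming were the 15 largest rises and 15 largest falls on day 11 without overlap of arrays. Added to them were up to 4 called members with the largest change of each list, and the 6 largest rises and falls of the other comparisons. Cdkn1a, Mdm2, Ccng1, Trp53inp1 and Mki67 were included whatever they did. Of the 179 candidates 96 are named. Those passed over lacked a well-known function or were left out although they have one, such as the heat shock chaperones. The epithelial markers Epcam and Cldn3 were added to check the label. Alternatives covered the floor, the filter on dim probes, quantile normalization, the choice of probe, the arrays in the fit, a replicate block, each array left out, and the carbon controls.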

Additional observations from a re-analysis of the deposited data

Results flagged for a closer look

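For 19 genes picked for large changes or large differences, the change in mca4 on day 11 and the change in mmca on day 9 differed. Each change was against the unirradiated arrays of its tumour, and the difference was tested directly (limma, adjusted p under 0.05). Cnot2 and Tnnt3 were picked only because this difference was large, and the other genes by values that enter it. The test is therefore no independent support for any of them. Among genes that rose in mca4 the difference, mca4 minus mmca, was 2.69 for Rsad2, 2.58 for Klf6, 2.44 for Cnot2, 1.77 for Chil1, 1.42 for Cd83, 1.17 for Krt78, 1.16 for Ltf, 1.16 for Gbp2 and 1.05 for Tgfbi. In mmca the change was 0.00061 for Rsad2 and -0.0077 for Cnot2, neither past the test (adjusted p = 0.999 and 0.982), whereas Ltf rose there by 2.97.

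Among genes that fell in mca4 the difference was -2.12 for Acer2, -2.28 for Tbr1, -2.62 for Gata5 and -3.27 for Mt2. In mmca Acer2, Tbr1 and Gata5 fell as well, with changes of -1.29, -1.88 and -1.33, and Mt2 had a change of -0.13 (adjusted p = 0.745). The muscle genes differed most, by -6.00 for Atp2a1, -6.44 for Tnnt3, -6.47 for Mylk2, -6.92 for Xirp2, -7.49 for Tnnc2 and -9.87 for Pvalb, and in mmca their level was highest on the third of 3 irradiated arrays. Xirp2 and Pvalb had a value on only 1 unirradiated mmca array of day 9. With the carbon experiment's unirradiated arrays for both tumours none of the 19 differences was called: they lay between -3.24 for Pvalb and 1.02 for Gbp2, with adjusted p-values from 0.0621 for Mt2 upwards.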

How the results depend on the processing

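The number of genes called on day 11 was 7872, and between 6161 (missing values at the floor, then quantile normalization) and 8630 (no filter on dim probes) under the other settings that keep the gamma controls. It was 6800 to 7476 without each array in turn, 7704 with a replicate block and 6980 with the arrays of the comparison alone. With the carbon controls it was 5199, and 3657 with missing values at the floor and quantile normalization added. Against day 1 the count was 4475, and 2743 with missing values at the floor and quantile normalization; it was 2020 to 3959 without each array, lowest without the first day 1 array, and 4283 with the block. The difference from mmca was called in 5510 genes, in 4574 to 5342 without each array, in 5214 with the block and in 644 with the carbon experiment's controls. The cause of these shifts was not tested. Nothing in the labels pairs arrays by number, and with 2 numbers per pair of groups they share only a number: same-numbered deviations correlated at 0.14 between gamma controls and day 1, at -0.059 between gamma controls and day 11, at -0.029 between day 1 and day 11 and at 0.018 in mmca.

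Of the named genes, none turned under settings that keep the gamma controls. With the carbon controls 25 turned; where 2 values follow, the second adds missing values at the floor and quantile normalization. They were Krt8 (-1.12, -1.07), H2-DMb1 (0.70, 0.66), Rsad2 (-0.32, -0.24), H2-Q1 (-0.046), Cdkn1a (-0.57, -0.41), Mdm2 (-0.0033), Ccng1 (-0.026), Btg2 (-0.032, -0.050), Aurka (-0.13, -0.010), Cdc25c (-0.17, -0.055), Bub1b (-0.23, -0.17), Mcm7 (-0.70, -0.59) and Xrcc5 (-0.82, -0.80). The others were Adm (-2.36, -2.32), Egln1 (-0.71, -0.61), Pkm (-1.03, -0.83), Fos (-1.64, -1.62), Klf6 (-0.85, -0.72), Atf3 (-0.17, -0.054), Herpud1 (-0.79, -0.70), Pdgfrb (0.077, 0.20), Igf2 (0.57, 0.51), Tbr1 (0.11, 0.11), Gata5 (0.24, 0.27) and Cnot2 (-0.028). Another 21 named genes kept their direction against the carbon controls and were no longer called, and 51 kept direction and call. With missing values at the floor and quantile normalization the calls against the gamma controls of Sprr1a, Ccl8, Igkv9-120, Thbs4, Tgfb1 and Tnnt3 were lost (adjusted p = 0.0552, 0.377, 0.482, 0.0727, 0.139 and 0.0737), and with the block that of Pvalb (adjusted p = 0.0533); Ccl8 was also lost with fewer arrays in the fit. Arrays carry no counts, so their number and the signal near the floor limit what can be told. Both control pairs hold 2 arrays, and neither was matched in time to day 11.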
